A study of Homo sapiens with 10 samples.

Results

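The histone mark H3K27ac, which is found at active promoters and enhancers, was measured by ChIP-seq at the genes that set the entry into the cell cycle: CCND1, CCND2, CCND3, CDK4, CDK6, CDKN1A, CDKN1B and CDKN2B. The members were all regions that the authors' annotated count table assigns to these 8 symbols, 51 of 67387 annotated regions and of 169637 regions in all, each 502 bp wide. CDK6 held 32 of them, CCND3 6, CCND1 4, CDKN1A 4, CDKN1B 2, CDKN2B 2 and CDK4 1, and CCND2 had no region in the annotated table. By class, 15 lay within 1 kb of a transcription start, 3 between 1 and 3 kb, 31 in introns (28 of CDK6 and 3 of CCND3) and 2 in an exon or 5′ UTR. None was classed as distal intergenic, so the regions away from promoters described here are those inside CDK6, CCND3 and CDKN1A.

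The cells were H1975, an established lung adenocarcinoma line with mutant EGFR. DMSO cells grew without drug for 21 days and then in DMSO for 3 days. Osimertinib DTP (drug-tolerant persister) cells were the survivors of 24 days in osimertinib at 500 nM, which blocks mutant EGFR. Osimertinib DTP + AZD5153 cells had 21 days of 500 nM osimertinib followed by 3 days of 150 nM AZD5153, a BET bromodomain inhibitor. Their titles carry the word "combo", but the labels do not state whether osimertinib was kept on during the AZD5153 days. Each group had 3 libraries, which the labels call biological triplicates without saying how the cultures were kept apart, and 1 input library was pooled. All groups come from this single line, and both treated groups consist of cells that outlived the drug.

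D-type cyclins bind and activate the kinases CDK4 and CDK6, which phosphorylate the retinoblastoma protein RB1 and so release E2F factors for S phase. CDKN2B (p15) blocks CDK4 and CDK6 directly, while CDKN1A (p21) and CDKN1B (p27) act mainly on the cyclin-CDK2 complexes that follow. In EGFR-mutant lung cancer, EGFR signaling through the MAPK pathway drives CCND1 transcription, and G1 arrest is a known response to EGFR inhibition.

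The promoters of these genes are shown first, because the regions over them are compared with the CDK6 introns below. The sequences are RefSeq start-site windows of GRCh38.p14, from 250 bases before to 50 after a start, written 5′ to 3′ on the strand of the gene. RefSeq entries were found for 6 of the 8 members, and 1 window is printed for each, the one nearest the acetylated regions where a gene has several. The CDK6 window lies between its acetylated promoter regions without overlapping either, and the others overlap at least 1 member region. Capitals mark matches on either strand. The GC box was searched as GGGCGG, the TATA box as TATAAA, the AP-1 motif as TGANTCA, the E2F motif as TTTCCCGC or as TTTGGCGC, and the box named for its letters as CCAAT. Adjoining GC boxes can share bases.

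CDK6, chr7:92833910-92834209, minus strand: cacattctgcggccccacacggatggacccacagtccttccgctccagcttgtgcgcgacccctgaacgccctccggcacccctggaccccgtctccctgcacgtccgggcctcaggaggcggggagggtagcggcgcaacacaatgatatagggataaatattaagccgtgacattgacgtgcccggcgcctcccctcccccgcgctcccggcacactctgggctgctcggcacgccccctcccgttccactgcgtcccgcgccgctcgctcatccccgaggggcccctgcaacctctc

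CDK4, chr12:57752261-57752560, minus strand: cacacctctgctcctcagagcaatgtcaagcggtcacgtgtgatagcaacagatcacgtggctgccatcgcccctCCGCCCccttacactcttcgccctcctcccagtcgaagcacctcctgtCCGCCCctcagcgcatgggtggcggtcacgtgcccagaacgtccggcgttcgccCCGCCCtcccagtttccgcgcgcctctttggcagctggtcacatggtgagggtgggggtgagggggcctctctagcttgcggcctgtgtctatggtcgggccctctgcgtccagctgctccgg

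CCND3, chr6:41941759-41942058, minus strand: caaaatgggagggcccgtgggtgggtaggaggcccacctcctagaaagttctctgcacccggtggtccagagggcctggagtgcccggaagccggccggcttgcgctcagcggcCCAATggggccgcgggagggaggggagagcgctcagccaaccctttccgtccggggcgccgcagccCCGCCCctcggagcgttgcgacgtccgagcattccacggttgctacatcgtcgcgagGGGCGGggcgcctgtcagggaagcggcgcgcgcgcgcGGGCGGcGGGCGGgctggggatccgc

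CDKN1A, chr6:36678464-36678763, plus strand: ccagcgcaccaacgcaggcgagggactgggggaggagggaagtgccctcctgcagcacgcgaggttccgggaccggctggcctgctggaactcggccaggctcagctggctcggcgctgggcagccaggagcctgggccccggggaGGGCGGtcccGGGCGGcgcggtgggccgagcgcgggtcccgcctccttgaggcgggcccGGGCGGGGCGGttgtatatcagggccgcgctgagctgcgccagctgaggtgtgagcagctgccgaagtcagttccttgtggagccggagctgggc

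CDKN1B, chr12:12717118-12717417, plus strand: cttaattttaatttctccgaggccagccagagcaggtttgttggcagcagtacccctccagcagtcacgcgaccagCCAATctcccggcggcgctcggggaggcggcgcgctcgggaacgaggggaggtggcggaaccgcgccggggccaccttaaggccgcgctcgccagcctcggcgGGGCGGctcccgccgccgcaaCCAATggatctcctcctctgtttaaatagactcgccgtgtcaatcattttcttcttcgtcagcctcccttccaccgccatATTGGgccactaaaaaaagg

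CDKN2B, chr9:22009256-22009555, minus strand: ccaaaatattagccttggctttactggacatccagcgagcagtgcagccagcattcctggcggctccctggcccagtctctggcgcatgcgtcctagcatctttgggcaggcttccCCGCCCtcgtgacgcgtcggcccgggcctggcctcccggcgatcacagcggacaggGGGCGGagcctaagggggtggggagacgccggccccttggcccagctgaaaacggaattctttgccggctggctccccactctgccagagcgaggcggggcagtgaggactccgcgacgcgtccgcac

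GC boxes were present in the windows of CDKN1A (4), CCND3 (4), CDK4 (3), CDKN2B (2) and CDKN1B (1), and the CDK6 window shown held none. Of 35116 RefSeq windows of this length, 45.0% hold a GC box, 34.6% a CCAAT box, 11.5% the TATA box, 7.71% the AP-1 motif, 1.63% TTTCCCGC and 0.652% TTTGGCGC. The CDKN1B window had 3 CCAAT boxes and the CCND3 window 1, and no TATA box, AP-1 or E2F letters were found in any of the windows shown. GC content was 68.7% for CDK6, 66.0% for CDK4, 73.7% for CCND3, 74.3% for CDKN1A, 62.3% for CDKN1B and 67.3% for CDKN2B, against a median of 58.7% over all windows. Sequence of the CDK6 introns was not used here.

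Library depth and quality bear on all values below. Total counts over all regions ranged from 6263443 to 10463351 for the 9 H3K27ac libraries. Replicates correlated at a Spearman coefficient of 0.870 to 0.898 in DMSO and 0.818 to 0.835 in osimertinib DTP, but osimertinib DTP + AZD5153 replicate 3 reached only 0.430 and 0.354 with its own replicates, which had 0.890 with each other. Regions within 1 kb of a start took 66.7% of the annotated counts in that library and 59.8% in osimertinib DTP replicate 2, against 40.3 to 45.9% in the other 7. Results are therefore given from the fit of all 9 libraries and, where they differ, without osimertinib DTP + AZD5153 replicate 3 or without both of these libraries, the last chosen after the data were seen. That last fit drops libraries for their high promoter share, so lower promoter levels in the treated groups are partly built in. For the 15 member regions within 1 kb, the median log2 fold change in osimertinib DTP against DMSO went from 0.23 to -0.38. It also leaves fewer libraries in each treated group. Promoters of all 6 epithelial markers (such as KRT7, KRT8 and EPCAM) were acetylated, with a summed level of 470 to 646 CPM in DMSO libraries, 445 to 962 CPM under osimertinib and 450 to 972 CPM with AZD5153. The blood markers PTPRC and CD3E had no promoter region, and of the endothelial pair CDH5 had 2 (summed level 10.6 to 31.3, 22.5 to 35.6 and 22.6 to 49.4 CPM) and PECAM1 none. The 3 fibroblast markers (COL1A1, COL1A2, PDGFRB), genes of mesenchymal cells, summed to 14.7 to 31.3 CPM in DMSO, 51.1 to 123 CPM under osimertinib and 55.8 to 199 CPM with AZD5153, and their part in the results below was not tested.

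**Figure D1:**
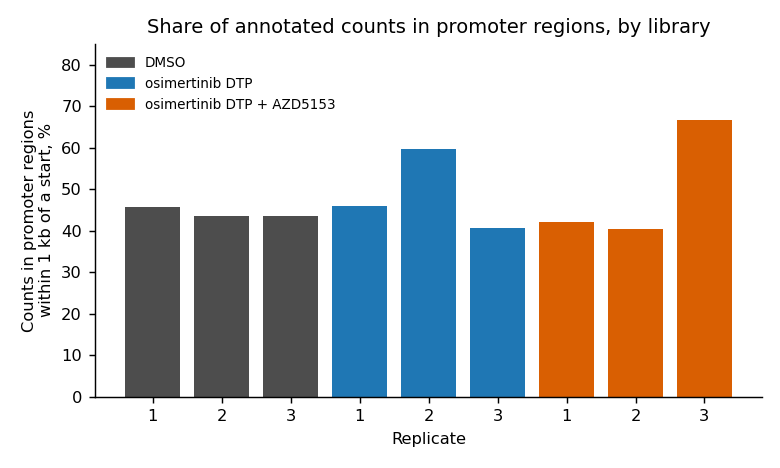
Share of the counts in annotated regions (y axis, %) that fell in regions within 1 kb of a transcription start, 1 bar per library with the replicate number on the x axis and the group as color. Osimertinib DTP replicate 2 (59.8%) and osimertinib DTP + AZD5153 replicate 3 (66.7%) stand above the other 7 libraries (40.3 to 45.9%).

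CDK6, the kinase that pairs with D-type cyclins alongside CDK4, held all the regions called in the fit of 9 libraries. In osimertinib DTP, 7 of the 51 regions had lower H3K27ac than in DMSO and none had higher. All 7 were in CDK6: 6 of the 10 regions in its intron 5 and 1 region in the same stretch that the table classes as an exon of another transcript. Over all 157919 regions tested, 5.13% were called lower and 5.58% higher, so the CDK6 introns, with 6 of 28 called lower, lay above that background. The background includes regions outside the annotated table, and the 6 lie near each other in 1 intron and cannot be taken as independent. None of the 19 regions of the other genes was called, a count near the background, and without both promoter-rich libraries 5 were. The test was edgeR's quasi-likelihood test with Benjamini-Hochberg adjustment over all regions at 0.05, and CPM denotes counts scaled by the TMM-adjusted library size to a common total, comparable between regions since all have the same width. Leaving out any single DMSO or osimertinib DTP library cut the 7 calls to between 3 and 5. In those fits the calls of lower H3K27ac over all regions fell too, from 8107 to between 482 and 4616. Leaving out osimertinib DTP + AZD5153 replicate 3 raised the member calls to 19, with 12.7% of all regions called lower and 14.2% higher. ChIP of a whole culture cannot tell fewer acetylated cells from less acetylation in each cell.

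The largest losses were at the downstream end of intron 5, beginning with chr7:92625094-92625595 (hg38), 208.6 kb from the CDK6 start. This region measured 10.3, 26.4 and 18.7 CPM in DMSO, 0.669, 0.835 and 0.705 in the osimertinib DTP libraries and 0.200, 0.233 and 0 in those of osimertinib DTP + AZD5153. The groups were fully apart, and no treated library held a called peak there while all 3 DMSO libraries did. Its log2 fold change was -4.63 ± 0.67 (SE) in osimertinib DTP (adjusted p = 0.00273, edgeR) and -6.71 ± 0.79 in osimertinib DTP + AZD5153 (adjusted p = 0.00114, edgeR). In counts, 556 reads in DMSO stood against 20 in osimertinib DTP, a ratio per depth of 25.0 with a 95% counting interval of 16 to 41.3, and against 4 in osimertinib DTP + AZD5153. The input held 7 reads in this region, close to the median of 10 over all regions, though input and H3K27ac totals are not comparable.

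Next to it, chr7:92626195-92626696 had 7.71, 22.3 and 16.4 CPM in DMSO, 0.956, 0.139 and 0.604 in the osimertinib DTP libraries and 0.401, 0.349 and 0.193 in those of osimertinib DTP + AZD5153. The log2 fold change was -4.68 ± 0.71 in osimertinib DTP (adjusted p = 0.00296, edgeR) and -5.5 ± 0.77 in osimertinib DTP + AZD5153 (adjusted p = 0.00114, edgeR), again with every treated library below every DMSO library. The third region of this run, chr7:92627055-92627556, had 4.17, 5.89 and 8.25 CPM in DMSO, 0.287, 0.417 and 0.806 in the osimertinib DTP libraries and 0.301, 0.349 and 0.387 in those of osimertinib DTP + AZD5153. Here the log2 fold change was -3.56 ± 0.66 under osimertinib (adjusted p = 0.00497, edgeR) and -4.11 ± 0.71 with AZD5153 (adjusted p = 0.00186). These 3 regions were called against DMSO in both treated groups whichever of the 9 libraries was left out.

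Toward the CDK6 start the losses were smaller. At chr7:92628915-92629416 the mean went from 4.18 ± 0.388 CPM (SD, n = 3) in DMSO to 0.549 ± 0.248 under osimertinib and 0.222 ± 0.233 with AZD5153 added, log2 fold changes of -2.87 and -4.03. At chr7:92631491-92631992 it went from 5.65 ± 1.53 to 0.990 ± 0.497 and 0.389 ± 0.357, log2 fold changes of -2.47 and -3.68. All 4 of these differences from DMSO were called (edgeR adjusted p = 0.0204, 0.00412, 0.0331 and 0.00509, in the order given). Each osimertinib DTP call was lost in 6 of the 9 leave-one-out fits (highest adjusted p = 0.108 and 0.159, edgeR), and the osimertinib DTP + AZD5153 calls in none.

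Within intron 5, a stretch about 2 kb long between the regions called lower in osimertinib DTP had smaller differences. At chr7:92633569-92634070 the libraries had 12.3, 33.6 and 18.3 CPM in DMSO, 9.46, 8.21 and 15.1 in the osimertinib DTP libraries and 14.6, 17.6 and 2.71 in those of osimertinib DTP + AZD5153, so the groups overlapped (log2 fold changes -0.97 ± 0.64 and -0.87 ± 0.64, adjusted p = 0.378 and 0.382, edgeR). The neighbors at chr7:92634094-92634595 and chr7:92635090-92635591 had log2 fold changes of -1.13 ± 0.59 and -0.84 ± 0.62 in osimertinib DTP, neither called (adjusted p = 0.237 and 0.442, edgeR), with all 3 osimertinib DTP libraries under a peak. The first of this pair was called lower in osimertinib DTP + AZD5153, at -1.79 ± 0.60 (adjusted p = 0.0461, edgeR), a call lost with the replicate block (adjusted p = 0.0728) and in 7 of the 9 leave-one-out fits (highest adjusted p = 0.161). These regions were picked out after their values were seen. Whether their changes differ from those of their neighbors was not tested.

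Past this stretch the differences were larger again. At chr7:92636114-92636615 the level was 4.17, 7.23 and 9.05 CPM in DMSO, 2.68, 0.974 and 2.62 in the osimertinib DTP libraries and 0.802, 0.814 and 0.773 in those of osimertinib DTP + AZD5153, the last group below both others without overlap. The difference from DMSO was called in osimertinib DTP + AZD5153 (-3.07 ± 0.64, adjusted p = 0.00457, edgeR) but missed the threshold in osimertinib DTP (-1.68 ± 0.58, adjusted p = 0.0702, edgeR). The latter passed with DESeq2 (adjusted p = 0.0195) and, in edgeR, with a loess offset (adjusted p = 0.0487), with only the libraries compared (0.0135), without osimertinib DTP + AZD5153 replicate 3 (0.0115) and without both promoter-rich libraries (0.0389). It did not pass with the replicate block (adjusted p = 0.0683, edgeR), and it passed in only 1 of the 9 leave-one-out fits (highest adjusted p = 0.292, edgeR). The exon-class region chr7:92639187-92639688 had 5.17, 17 and 11.2 CPM in DMSO, 1.34, 1.11 and 1.61 in the osimertinib DTP libraries and 1.30, 1.98 and 0.387 in those of osimertinib DTP + AZD5153 (log2 fold changes -3.02 ± 0.66 and -3.12 ± 0.66, adjusted p = 0.0098 and 0.0053, edgeR). At chr7:92641634-92642135, 192.0 kb from the start, the last region called in intron 5, the changes were -2.45 ± 0.59 and -2.70 ± 0.60 on the log2 scale (adjusted p = 0.0146 and 0.00642, edgeR). Without DMSO replicate 2 neither of these was called in osimertinib DTP (adjusted p = 0.0852 and 0.12, edgeR), and the exon-class region was called there in 6 of the 9 leave-one-out fits and the other in 4.

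**Figure D2:**
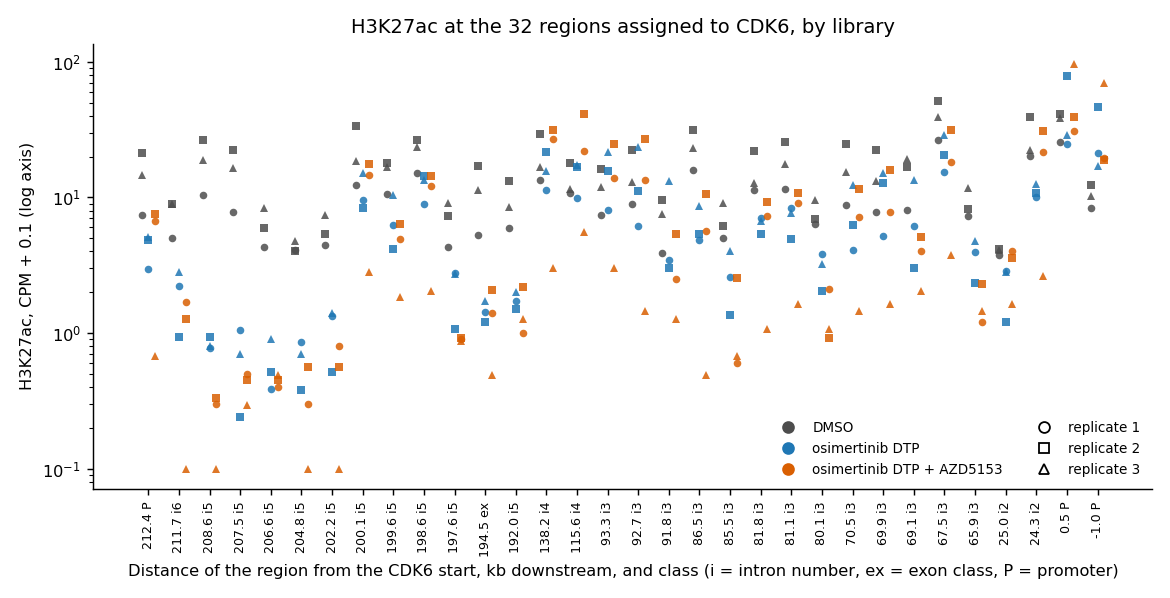
H3K27ac level (y axis, CPM + 0.1, log scale) of each library at the 32 CDK6 regions, ordered on the x axis from the downstream end to the promoter, with the distance from the CDK6 start in kb; color gives the group and shape the replicate. In intron 5 the DMSO points lie above all treated points except at the region 200.1 kb from the start, and osimertinib DTP + AZD5153 replicate 3 lies low across the introns and highest at both promoter regions.

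Within 1 kb of the CDK6 start no region was called lower. Its highest region, chr7:92833124-92833625, had 25.5, 41.3 and 38.2 CPM in DMSO, 24.6, 78.9 and 28.5 in the osimertinib DTP libraries and 31.0, 38.9 and 95.9 in those of osimertinib DTP + AZD5153. Those groups overlapped and no difference was called (log2 fold changes 0.33 ± 0.58 and 0.66 ± 0.58, adjusted p = 0.789 and 0.474, edgeR), and the highest value of each treated group came from its library with the largest promoter share. The second promoter region, chr7:92834713-92835214, was higher in every treated library: 8.25, 12.2 and 10.2 CPM in DMSO, 21.2, 46.1 and 16.9 in the osimertinib DTP libraries and 19.3, 18.8 and 69.6 in those of osimertinib DTP + AZD5153. Its log2 fold changes of 1.46 ± 0.61 and 1.81 ± 0.62 did not pass the threshold over all libraries (adjusted p = 0.137 and 0.0502, edgeR). Without osimertinib DTP + AZD5153 replicate 3 the osimertinib DTP change was called (1.45, adjusted p = 0.0163, edgeR), and without both promoter-rich libraries both were, at 0.93 ± 0.34 and 0.98 ± 0.34 (adjusted p = 0.0416 and 0.0215, edgeR). A further region, chr7:92621220-92621721, is classed as promoter for lying 2 to 3 kb from the start of a shorter transcript, 212.4 kb from the CDK6 start. It had 7.26, 21 and 14.6 CPM in DMSO, 2.87, 4.73 and 5.04 in the osimertinib DTP libraries and 6.61, 7.45 and 0.580 in those of osimertinib DTP + AZD5153. Its log2 fold change in osimertinib DTP, -1.76 ± 0.70, was not called over all libraries (adjusted p = 0.117, edgeR), but was without osimertinib DTP + AZD5153 replicate 3 (-1.76, adjusted p = 0.0055, edgeR) and without both promoter-rich libraries (-1.83, adjusted p = 0.0034, edgeR).

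A ratio taken within each library does not depend on the scaling between libraries. Counts in the 6 intron 5 regions called in osimertinib DTP, divided by counts in both CDK6 promoter regions, were 1.08, 1.44 and 1.32 in DMSO, 0.121, 0.0278 and 0.131 in the osimertinib DTP libraries and 0.0538, 0.0685 and 0.0105 in those of osimertinib DTP + AZD5153. For the other 4 regions of intron 5 the ratio was 1.24, 1.59 and 1.40 in DMSO, 0.591, 0.219 and 0.914 in the osimertinib DTP libraries and 0.641, 0.675 and 0.0432 in those of osimertinib DTP + AZD5153. In both sets all 6 treated libraries had a lower intron-to-promoter ratio than any DMSO library. The ratio also moves with its denominator. Both promoter regions summed to 33.7, 53.5 and 48.4 CPM in DMSO, 45.8, 125 and 45.4 in the osimertinib DTP libraries and 50.3, 57.7 and 165 in those of osimertinib DTP + AZD5153. How often other genes have such a separation was not computed. Since the first set was defined by its fold change, its ratios describe that choice and test nothing.

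**Figure D3:**
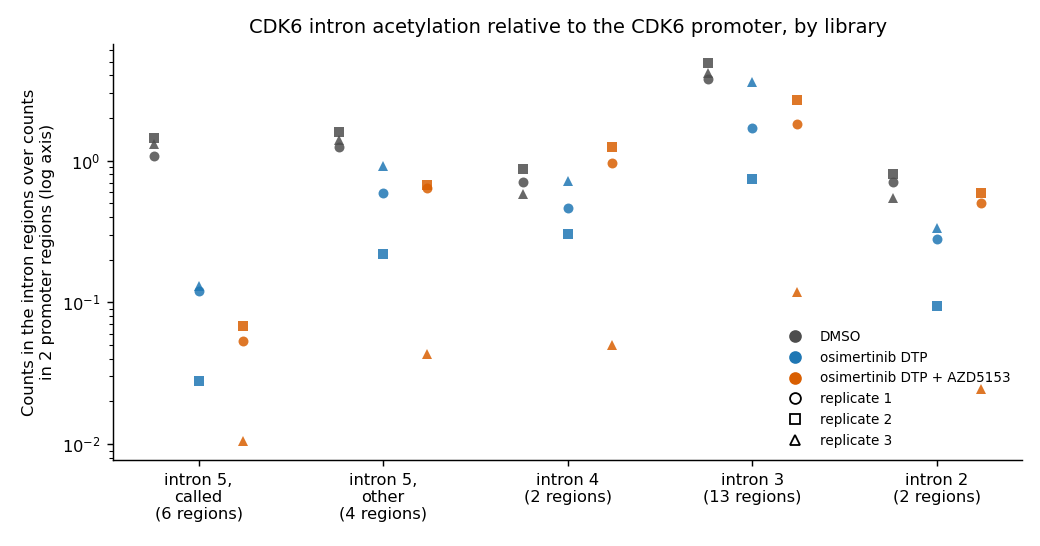
Counts in groups of CDK6 intron regions divided by the counts in the 2 CDK6 promoter regions of the same library (y axis, log scale), by intron (x axis; "called" means called lower in osimertinib DTP), 1 point per library. In the called part of intron 5 the ratio was 1.08 to 1.44 in DMSO and at most 0.131 in treated libraries, while in intron 4 osimertinib DTP + AZD5153 replicates 1 and 2 (0.964 and 1.25) lay above all DMSO libraries.

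In introns 4 and 3 no region was called in osimertinib DTP over all libraries. Summed over its 2 regions, intron 4 had 24.0, 46.9 and 28.1 CPM in DMSO, 21.1, 38.1 and 32.8 in the osimertinib DTP libraries and 48.5, 72.4 and 8.31 in those of osimertinib DTP + AZD5153. Osimertinib DTP thus lay within the DMSO range or just under it, whereas osimertinib DTP + AZD5153 replicates 1 and 2 lay above all others and replicate 3 below. Without replicate 3, chr7:92718061-92718562 was called higher in osimertinib DTP + AZD5153 than in DMSO, with a log2 fold change of 1.23 (adjusted p = 0.0423, edgeR), and without both promoter-rich libraries of 1.32 ± 0.36 (adjusted p = 0.00369). Over all libraries the value was 0.78 ± 0.63 (adjusted p = 0.429, edgeR).

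Intron 3, with 13 regions, held the highest intronic region of CDK6, chr7:92766146-92766647. There the libraries had 26.3, 51.3 and 39.0 CPM in DMSO, 15.4, 20.5 and 28.8 in the osimertinib DTP libraries and 18.2, 31.1 and 3.67 in those of osimertinib DTP + AZD5153, and neither change was called (-0.85 ± 0.63 and -1.13 ± 0.63, adjusted p = 0.436 and 0.231, edgeR). Over the intron the log2 fold changes in osimertinib DTP ranged from -1.91 to 0.37 with a median of -1.12. In osimertinib DTP + AZD5153, 4 of the 13 were called lower, with log2 fold changes of -1.99 to -2.53, of which the one at chr7:92764524-92765025 was lost with the replicate block (edgeR adjusted p = 0.0766). Without both promoter-rich libraries, 3 of the 13 were called lower in osimertinib DTP and 5 with AZD5153 added. A group of 3 regions 91.8 to 93.3 kb from the start had -0.12 to 0.37 in osimertinib DTP (SE 0.66 to 0.76), while those 80.1 to 86.5 kb from it had -1.27 to -1.91. In each of the 3, osimertinib DTP replicate 3 was the highest of its group. At chr7:92741867-92742368 the libraries had 3.81, 9.50 and 7.44 CPM in DMSO and 3.35, 2.92 and 13.2 in osimertinib DTP, with a peak in only 1 of the latter. Whether these 2 groups of regions differ was not tested. The 2 regions of intron 2 had log2 fold changes of -0.81 and -1.29 under osimertinib and of -0.36 and -0.56 with AZD5153 added, none called over all libraries. The higher of them, chr7:92809364-92809865, was called lower in osimertinib DTP without osimertinib DTP + AZD5153 replicate 3 (-1.30, adjusted p = 0.0229, edgeR) and without both promoter-rich libraries (-1.25, adjusted p = 0.0087, edgeR).

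**Figure D4:**
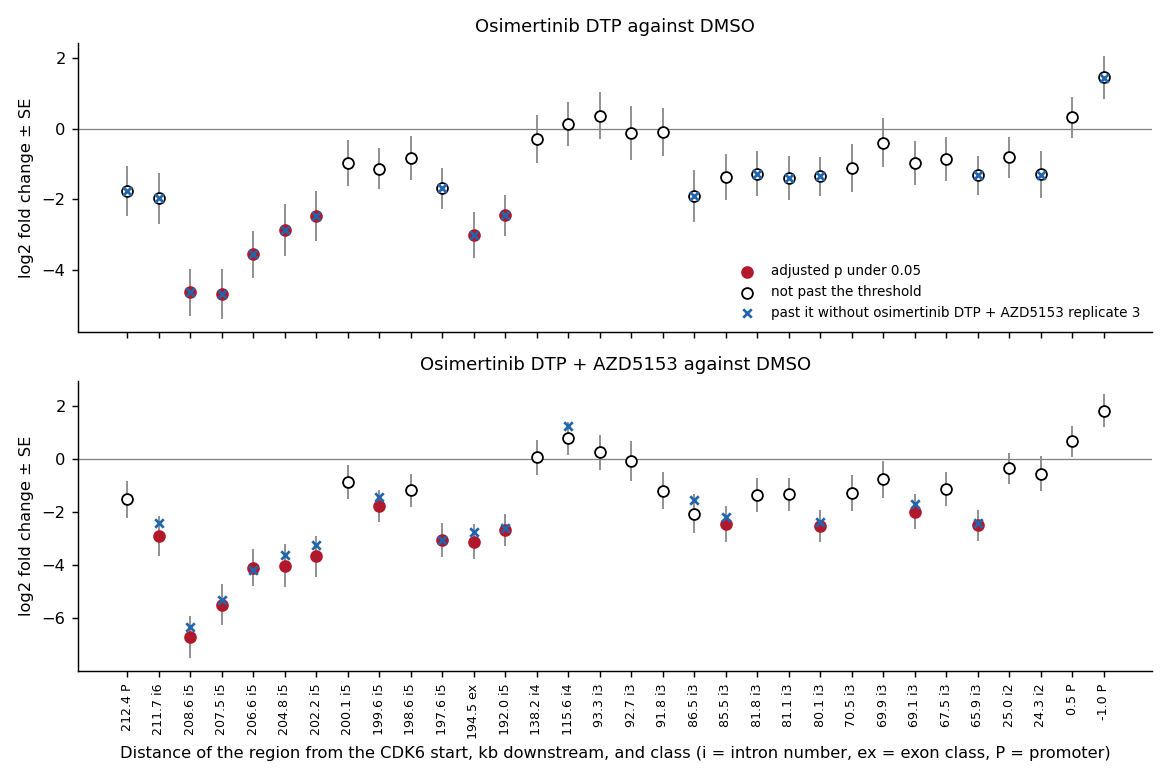
Log2 fold change with its SE (y axis) at the 32 CDK6 regions for osimertinib DTP (top) and osimertinib DTP + AZD5153 (bottom) against DMSO, in the same order as the levels by library; filled points passed an adjusted p of 0.05, and crosses mark regions that passed it without osimertinib DTP + AZD5153 replicate 3. The lowest values, -4.63 and -4.68 on top and -6.71 and -5.5 below, belong to the regions 207.5 to 208.6 kb from the start.

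Against DMSO, osimertinib DTP + AZD5153 had 14 member regions called lower and none higher, beside 9.01% and 9.05% of all regions. Without DMSO replicate 2 or 3 the 14 became 9 and 8, while the regions called lower over the whole series went from 14232 to 4526 and 5843. The 14 were 13 of the 28 CDK6 intron regions (8 in intron 5, 4 in intron 3 and 1 in intron 6) and the exon-class region. All 7 regions called in osimertinib DTP were among them, in comparisons that share the DMSO libraries. The additional region in intron 6, chr7:92621933-92622434, had 4.90, 8.78 and 8.85 CPM in DMSO, 2.10, 0.835 and 2.72 in the osimertinib DTP libraries and 1.60, 1.16 and 0 in those of osimertinib DTP + AZD5153 (-2.91 ± 0.77, adjusted p = 0.0154, edgeR). Summed over all 28 intron regions, CDK6 had 259, 523 and 396 CPM in DMSO, 147, 174 and 261 in the osimertinib DTP libraries and 202, 307 and 41.0 in those of osimertinib DTP + AZD5153. The DMSO range thus touched that of both treated groups, and replicate 3 lay far below the other libraries.

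Between the treated groups no member region differed over all libraries, nor did any of the 157919 regions (0% higher and 0% lower by edgeR, with 7013 at an unadjusted p under 0.05, and 21 higher and 73 lower by DESeq2). Among the members, 3 regions had an unadjusted edgeR p under 0.05, all lower in osimertinib DTP + AZD5153: chr7:92625094-92625595 and chr7:92636114-92636615 of CDK6 and a 5′ UTR region of CDKN1A. With only 3 libraries per group, 1 of them discordant, small differences were not detectable. Without replicate 3, where 0.0637% of regions were called higher and 0.0587% lower, and without both promoter-rich libraries, where 1.13% and 0.982% were, no member was called either. In the latter fit the 51 members had a median log2 fold change of 0.29 from osimertinib DTP to osimertinib DTP + AZD5153, beside 0.30 over all annotated regions and -0.0012 over all 161681 regions tested, with 14 members at an unadjusted p under 0.05 (edgeR).

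Calls against DMSO grew when the discordant library was left out. In osimertinib DTP against DMSO, 18 member regions were then lower and 1 higher (12.7% and 14.2% of all regions), 14 of them CDK6 introns, and in osimertinib DTP + AZD5153 against DMSO 16 were lower and 2 higher (17.3% and 18.4%). Without both promoter-rich libraries the counts were 19 lower and 1 higher in osimertinib DTP (12% and 14.9%) and 21 lower and 3 higher in osimertinib DTP + AZD5153 (19.8% and 22.8%). The share of CDK6 introns called lower in osimertinib DTP, 12 of 28 in this last fit, was above the 12% of all regions. So was that of the other members, with 5 of 19 called lower (all 4 CCND1 regions and 1 of CCND3), and in osimertinib DTP + AZD5153 against DMSO 6 of these 19 were lower and 1 higher. Neighboring regions of 1 gene, such as the 4 of CCND1, cannot be taken as independent, so these shares rest on few loci.

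CCND1, which encodes cyclin D1, had 3 regions within 1 kb of its start and 1 between 1 and 2 kb upstream. Its highest region, chr11:69641131-69641632 at the start site, had 23.1, 25.4 and 23.2 CPM in DMSO, 6.98, 13.5 and 4.93 in the osimertinib DTP libraries and 12.9, 13.6 and 28.0 in those of osimertinib DTP + AZD5153. All osimertinib DTP libraries lay below all DMSO libraries, and of the third group replicates 1 and 2 did too, while replicate 3 lay above. The log2 fold change in osimertinib DTP, -1.50 ± 0.56, missed the threshold (adjusted p = 0.0928, edgeR). It passed with DESeq2 (adjusted p = 0.0199) and, in edgeR, without TMM (adjusted p = 0.0424), with a loess offset (0.0303) and with only the libraries compared (0.0192). The neighboring chr11:69640537-69641038 went from 14.4, 18.6 and 14.9 CPM to 3.73, 8.07 and 2.52 in the osimertinib DTP libraries and 6.11, 7.68 and 8.70 in those of osimertinib DTP + AZD5153, both below DMSO without overlap. Its log2 fold change in osimertinib DTP, -1.75 ± 0.56, just missed the threshold (adjusted p = 0.0537, edgeR), and passed it with the replicate number as a block, at -1.84 ± 0.52 (adjusted p = 0.0465, edgeR). This region was called in 3 of the 9 leave-one-out fits (highest adjusted p = 0.247, edgeR).

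Both CCND1 regions were called lower in osimertinib DTP without osimertinib DTP + AZD5153 replicate 3 (-1.76, adjusted p = 0.00569, and -1.51, adjusted p = 0.0123, edgeR). Without both promoter-rich libraries all 4 CCND1 regions were, with log2 fold changes of -1.55 to -2.32 and adjusted p of 0.000167 to 0.00332 (edgeR). Because libraries were dropped there for their promoter share, lower promoter values follow in part from that choice. The region 1 to 2 kb upstream, chr11:69639047-69639548, was the one that moved most between the fits, from -0.52 ± 0.74 over all libraries (adjusted p = 0.729, edgeR) to -1.96 ± 0.49. It measured 8.43, 7.95 and 6.34 CPM in DMSO and 2.68, 12.2 and 1.11 in osimertinib DTP, so replicate 2 alone lay above DMSO. The values in osimertinib DTP + AZD5153 were 4.11, 4.65 and 14.5 CPM. Against DMSO, osimertinib DTP + AZD5153 had 2 of the 4 regions called lower in this fit, with log2 fold changes of -1.13 and -1.08 (adjusted p = 0.0241 and 0.0195, edgeR), and against osimertinib DTP the 4 log2 fold changes were 0.47 to 1.25, none called (lowest adjusted p = 0.0755, edgeR).

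CCND2, which encodes cyclin D2, showed little signal. The 1 region that overlaps the gene, chr12:4278305-4278806, was outside the annotated table and held 4, 2 and 3 reads in DMSO, 15, 5 and 7 in the osimertinib DTP libraries and 21, 8 and 6 in those of osimertinib DTP + AZD5153. These counts are low in every library and the region was not tested as a member.

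CCND3, which encodes cyclin D3, had 6 regions and none was called over all libraries. Its highest promoter region, chr6:41942102-41942603, had 14.5, 17.8 and 11.6 CPM in DMSO, 9.27, 13.8 and 8.96 in the osimertinib DTP libraries and 11.1, 7.68 and 3.09 in those of osimertinib DTP + AZD5153. The third group lay below DMSO without overlap, but the log2 fold change of -0.99 ± 0.56 was not called (adjusted p = 0.241, edgeR). The start-site region chr6:41941287-41941788 had 9.70, 11.7 and 7.95 CPM in DMSO, 2.96, 16.6 and 2.92 in the osimertinib DTP libraries and 3.71, 3.14 and 13.9 in those of osimertinib DTP + AZD5153, so in each treated group the promoter-rich library was above DMSO and the others below. Without those libraries it was called lower in both groups (-1.70 ± 0.45 and -1.43 ± 0.45, adjusted p = 0.00498 and 0.0101, edgeR). The remaining promoter region, chr6:41940068-41940569, was called lower in osimertinib DTP + AZD5153 than in DMSO without its replicate 3 (-1.55, adjusted p = 0.0425, edgeR) and without both promoter-rich libraries (-1.48, adjusted p = 0.0296, edgeR). The highest of 3 intron 2 regions, chr6:41967141-41967642, had 9.79, 15.9 and 6.64 CPM in DMSO, 10.6, 11 and 6.85 in the osimertinib DTP libraries and 16.2, 17.2 and 2.13 in those of osimertinib DTP + AZD5153, with the groups overlapping and no call.

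CDK4, the partner kinase of CDK6, had a single region over its start, chr12:57751922-57752423. It measured 22.7, 34.2 and 26.7 CPM in DMSO, 20.1, 54.6 and 19.7 in the osimertinib DTP libraries and 25.2, 27.7 and 50.6 in those of osimertinib DTP + AZD5153. The groups overlapped, and the log2 fold changes of 0.17 ± 0.54 and 0.31 ± 0.54 were within error (adjusted p = 0.89 and 0.745, edgeR). The sign for osimertinib DTP turned with the scaling, to -0.00296 with library size alone and -0.17 with a loess offset.

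**Figure D5:**
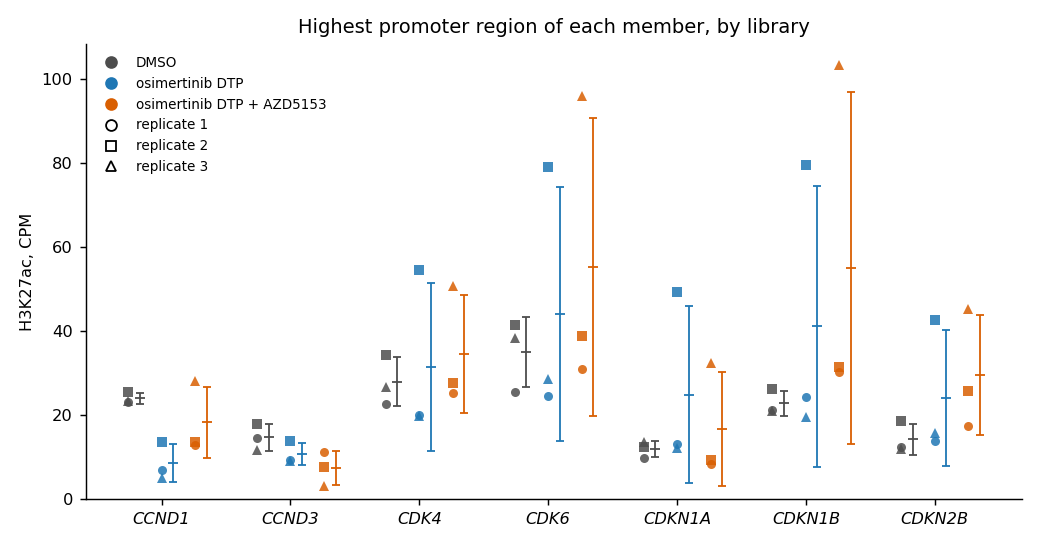
H3K27ac (y axis, CPM) at the highest promoter region of each of the 7 members that have one, 1 point per library, with the mean and SD of each group of 3 beside the points. CCND1 is the gene where all osimertinib DTP libraries lie below all DMSO libraries, and osimertinib DTP replicate 2 and osimertinib DTP + AZD5153 replicate 3 give the highest points at CDK4, CDK6, CDKN1A, CDKN1B and CDKN2B.

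Among the CDK inhibitors, none of the 8 regions was called over all libraries. Without both promoter-rich libraries 2 of the 4 CDKN1A regions were called lower in osimertinib DTP + AZD5153 than in DMSO, chr6:36679409-36679910 (log2 fold change -1.06, adjusted p = 0.0268, edgeR) and chr6:36680535-36681036 (-1.18, adjusted p = 0.0418, edgeR). In that fit 1 CDKN1B region, chr12:12714625-12715126, was called higher (1.46, adjusted p = 0.00138, edgeR). Of all regions, 19.8% were called lower and 22.8% higher there, so the counts of these 8 regions do not stand out. CDKN1A, which encodes p21, had 9.70, 12.3 and 13.5 CPM in DMSO, 13, 49.1 and 12.2 in the osimertinib DTP libraries and 8.32, 9.19 and 32.3 in those of osimertinib DTP + AZD5153 at its start-site region, chr6:36678694-36679195. Only the promoter-rich library of each treated group stood out, and no difference was called (log2 fold changes 1.06 ± 0.66 and 0.48 ± 0.66, adjusted p = 0.341 and 0.668, edgeR). Its 5′ UTR region, chr6:36682407-36682908, had 6.08, 12.5 and 8.95 CPM in DMSO, 8.41, 10.2 and 8.46 in the osimertinib DTP libraries and 3.81, 4.89 and 3.48 in those of osimertinib DTP + AZD5153. The last group lay below both others, replicate 3 included, yet its log2 fold changes of -1.17 ± 0.53 against DMSO and -1.14 ± 0.53 against osimertinib DTP were not called (adjusted p = 0.133 and 1, edgeR).

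CDKN1B, which encodes p27, had 2 regions. The higher one, chr12:12716662-12717163, had 21.2, 26.1 and 20.9 CPM in DMSO, 24.2, 79.5 and 19.4 in the osimertinib DTP libraries and 30.2, 31.3 and 103 in those of osimertinib DTP + AZD5153. The third group lay above DMSO without overlap, but the log2 fold change of 1.27 ± 0.62 was not called (adjusted p = 0.173, edgeR). The other region, chr12:12714625-12715126, about 2 kb upstream at the start of another transcript, had 8.25, 8.05 and 7.64 CPM in DMSO, 11.1, 12 and 12 in the osimertinib DTP libraries and 22.9, 18.7 and 4.25 in those of osimertinib DTP + AZD5153. All osimertinib DTP libraries lay above DMSO with a narrow spread (0.55 ± 0.58, adjusted p = 0.619, edgeR), and without replicate 3 the rise in osimertinib DTP + AZD5153 over DMSO was called, with a log2 fold change of 1.38 (adjusted p = 0.0159, edgeR).

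CDKN2B, which encodes p15, had 12.2, 18.5 and 11.8 CPM in DMSO, 13.7, 42.6 and 15.7 in the osimertinib DTP libraries and 17.4, 25.6 and 45.2 in those of osimertinib DTP + AZD5153 at chr9:22008763-22009264, its higher region. The groups overlapped and the log2 fold changes of 0.76 ± 0.58 and 1.05 ± 0.58 were not called (adjusted p = 0.454 and 0.226, edgeR). Its second region, chr9:22009348-22009849, ranged from 2.58 to 8.38 CPM over the 9 libraries.

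At the level of peaks, the authors' lists, called per library, covered 49 to 51 of the 51 members in DMSO and 31 to 35 in osimertinib DTP. Those of osimertinib DTP + AZD5153 covered 37, 38 and 19, the last in replicate 3. For the 28 CDK6 intron regions the peaks covered 28 in each DMSO library, 14, 14 and 18 in the osimertinib DTP libraries and 16, 17 and 1 in those of osimertinib DTP + AZD5153. The share of all annotated regions covered by each list was not computed. These counts therefore cannot tell a loss at the members from fewer peaks in the treated libraries.

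Set beside other genes, the loss in CDK6 introns was large but not singular. Of 1439 genes with at least 5 annotated intron regions, 29 had more than 6 regions called lower in osimertinib DTP and 238 had a higher share than the 21.4% of CDK6. In osimertinib DTP + AZD5153 against DMSO, 7 genes had more than 13 and 162 a higher share than 46.4%. The genes whose summed intronic signal followed that of CDK6 most closely over the 9 libraries were OSBPL3 (Pearson r = 0.992 on log2 CPM), TTLL5 (0.989), TM4SF18 (0.989), SPATS2L (0.987) and PI4K2A (0.985). These values rest in part on osimertinib DTP + AZD5153 replicate 3: without it OSBPL3 had 0.994 and the others 0.961 to 0.972. Among the 1438 genes compared, OSBPL3 then stayed at rank 1, while TTLL5, TM4SF18, SPATS2L and PI4K2A ranked 11, 12, 9 and 4.

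The other genes of G1 to S control, a list of 27 of which 24 had annotated regions, held 95 regions. In osimertinib DTP against DMSO, 5 of the 95 were called higher, close to the 5.58% of all regions, and 2 lower, under the 5.13% of all regions. The median log2 fold change was 0.27 beside 0.18 over all annotated regions. These counts moved with the libraries, to 13 higher and 9 lower without osimertinib DTP + AZD5153 replicate 3 (14.2% and 12.7% of all regions). Without both promoter-rich libraries they were 14 higher and 20 lower (14.9% and 12% of all regions), with a median of -0.12, so the lower calls were then above the share of all regions. Higher were 2 regions of CCNE1 (cyclin E1; 3.42 ± 0.66 and 2.84 ± 0.72), 2 intronic regions of SKP2, the ubiquitin ligase subunit that targets p27 (2.99 ± 0.70 and 2.63 ± 0.71), and 1 of E2F3 (2.28 ± 0.68), all assigned from outside promoters. Lower were an exon or UTR region of CDC25A, a phosphatase that activates CDK2 (-2.36 ± 0.64), and the promoter of RBL1, a relative of RB1 (-1.66 ± 0.52). In osimertinib DTP + AZD5153 against DMSO the counts were 5 higher and 5 lower, below the shares of all regions (9.05% and 9.01%), with CCNE1, SKP2 and E2F3 again higher and CDC25A (3 regions) and E2F8 (2 promoter regions, -2.43 ± 0.60 and -2.32 ± 0.62) lower. Without replicate 3 they became 15 and 13 (18.4% and 17.3% of all regions), and without both promoter-rich libraries 20 and 15 (22.8% and 19.8%). None was called between the treated groups over all libraries. These calls are from edgeR with an adjusted p under 0.05.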

How the data were processed

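H3K27ac ChIP-seq reads (75 nt, single end) of 9 libraries and 1 pooled input were processed by the authors; their processing notes name the build hg38, BWA 0.7.17, MACS2 2.2.6, featureCounts 2.0.0 and ChIPseeker 1.29.1, without saying how duplicates were handled. The authors deposited raw counts per region, with no normalization, for 502 bp regions, and gene, class and distance for the annotated subset. They also deposited a peak list per library, with fold enrichment (a ratio, not used here) and −log10 p and q values of each peak; an overlap of 1 bp counted as covered. The peak list of each library matched its own count column best.

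The test was that of edgeR 4.0.16, run with limma 3.58.1 under R 4.3.3: filterByExpr (minimum count 10; all 51 member regions passed), TMM scaling and the quasi-likelihood test, in 1 fit of the 9 libraries with a mean per group, adjusted over 157919 regions. SEs are the log2 fold change over the root of F. The script was tested on simulated data. The fit was repeated with DESeq2 1.42.0, with a loess offset (span 0.3), with no TMM scaling, with no filter, with only the libraries compared, with a replicate block, with each library left out and, added after the data were seen, both promoter-rich libraries left out.

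Replicate numbers in the titles are shared between groups. Deviations of same-numbered osimertinib DTP and DMSO libraries from their group means correlated at 0.334, 0.355 and 0.324, over the limit of 0.1 in each pair. Those of osimertinib DTP + AZD5153 correlated at -0.0183, 0.553 and 0.362 with DMSO, and at 0.243, 0.0262 and -0.240 with osimertinib DTP. The limit was thus not held in every pair of these 2 comparisons, and the labels do not say what a number marks. Regions named in the text were, for each gene, the highest promoter and highest other region by mean count, up to 3 called regions with the smallest p and, for CDK6, called introns; regions outside this rule were added after their values were seen. The members and lists were chosen with earlier results of these data known. Counting intervals are exact binomial at 95% and cover counting error only. The highest member count was 571, under the 1152 that 1 read per position and strand would allow. A gene of the marker lists is not reported here.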

Additional observations from a re-analysis of the deposited data

How the results depend on the processing

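Counts of member regions called against DMSO in osimertinib DTP, 7 over all libraries (6 in CDK6 introns), were 15 with DESeq2 (11), 20 with only the libraries of both groups (15) and 20 without both promoter-rich libraries (12), an alternative chosen after the data were seen. Calls over all regions rose too. They were 15406 lower and 12497 higher of 157887 with DESeq2, and 18728 and 19930 of 146480 with only the libraries of both groups. Without both promoter-rich libraries the shares were 12% lower and 14.9% higher, beside 5.13% and 5.58% over all libraries. Leaving out 1 library gave 3 to 19 regions (3 to 14 in CDK6 introns), while calls over all regions ranged from 482 to 20489 lower and from 668 to 22942 higher. In osimertinib DTP + AZD5153 against DMSO the 14 regions became 24 without both promoter-rich libraries, and 8 to 18 (7 to 15 in CDK6 introns) with 1 library left out. Over all regions 19.8% were lower and 22.8% higher without both promoter-rich libraries. With 1 library left out, 4526 to 27986 were lower and 3943 to 29786 higher. No member was called between the treated groups under any alternative run. The replicate block gave 8 calls (6 in CDK6 introns) for osimertinib DTP and, with AZD5153 added, 12 (11), and pairing by number changed no other count by over 1.5 times. Over all regions the block called 8008 lower and 8433 higher for osimertinib DTP, and 15202 and 12445 with AZD5153 added. The causes were not tested. Without TMM the median of all regions in osimertinib DTP + AZD5153 against DMSO moved from 0.23 to -0.02.

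Sign changes were seen only for log2 fold changes that were not called over all libraries. Without both promoter-rich libraries, osimertinib DTP against DMSO became -0.46 at CDK4, -0.38 at the higher CDK6 promoter region and -0.034 at the higher CDKN1B region. In that fit osimertinib DTP + AZD5153 against DMSO became -0.71 at CCND1 (69639047) and -0.36 at CDKN1A (36678694), and against osimertinib DTP 0.0912 at CCND3 (41942102) and 0.22 at CDK6 (92766146). Library size alone gave -0.27 at CCND1 (69639047) and -0.0024 at CCND3 (41967141) in osimertinib DTP + AZD5153 against DMSO, and -0.00296 at CDK4 in osimertinib DTP. The loess offset gave -0.0634 at CDK4 in osimertinib DTP + AZD5153, and -0.17 at CDK4 and -0.0925 at the CDK6 promoter in osimertinib DTP. At CDKN1A (36682407) osimertinib DTP became 0.0423 with no filter, 0.0237 with only the libraries compared and 0.0181 with the replicate block. With the replicate block osimertinib DTP + AZD5153 against DMSO became -7.9e-05 at CCND1 (69639047) and -0.082 at CCND3 (41967141).

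With 1 library left out, the log2 fold changes that turned sign in osimertinib DTP against DMSO ranged from -1.94 to 0.0607 at CCND1 (69639047), -0.45 to 0.26 at CCND3 (41967141), -0.43 to 0.51 at CDK4, -0.34 to 0.71 at the CDK6 promoter, -0.26 to 0.31 at CDKN1A (36682407) and -0.0049 to 1.28 at CDKN1B. In osimertinib DTP + AZD5153 against DMSO they ranged from -0.80 to 0.30 at CCND1 (69639047), -0.21 to 0.63 at CCND3 (41967141), -0.0786 to 0.49 at CDK4, -0.0098 to 0.92 at the CDK6 promoter and -0.44 to 0.78 at CDKN1A (36678694). Against osimertinib DTP they ranged from -0.26 to 1.98 at CCND1 (69639047), -0.0199 to 0.82 at CCND3 (41967141), -0.25 to 0.76 at CDK4, -0.71 to 0.0011 at CDK6 (92641634), -0.96 to 0.19 at CDK6 (92766146), -0.34 to 1.02 at the CDK6 promoter, -1.50 to 0.35 at CDKN1A (36678694), -0.42 to 1.294 at CDKN1B and -0.16 to 0.97 at CDKN2B. With 3 libraries per group, small differences were not detectable.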
